A study of Mus musculus with 2 samples.

Results

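Genes that bind oxygen or handle iron, 8 in all, were examined in mouse gastrocnemius, the large calf muscle: Mb (myoglobin), the adult globin genes Hba-a1, Hba-a2, Hbb-bs and Hbb-bt, the ferritin subunit genes Fth1 and Ftl1, and Tfrc (transferrin receptor 1). They were chosen by name and are 8 of 14900 annotated genes with reads. The muscle came from male B6CASTF1/J mice, which are F1 hybrids of C57BL/6J and CAST/EiJ, aged 18 to 20 months. Full-length cDNA was sequenced as long reads from 2 µg of RNA with SIRV and Ambion mix 1 spike-ins, and reads were counted per transcript model in 2 libraries, biological replicates 1 and 2. No treatment or second group exists, so every test below compares the 2 libraries and not conditions. Whether the libraries came from separate mice or from pooled tissue is not given in the sources used here. The tables held 1509380 reads in replicate 1 and 1173233 in replicate 2, of which 4031 (0.267%) and 2282 (0.195%) belonged to the 8 genes. Spike-in reads were 2.71% and 0.590% of the totals.

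Myoglobin is a haem protein that stores oxygen in muscle fibres and carries it inside them, and it is typical of slow and oxidative fibres. Haemoglobin, built from alpha and beta globin chains, carries oxygen in red cells, so globin RNA in a muscle sample is usually taken to come from blood in the vessels. Ferritin is a hollow shell of heavy (Fth1) and light (Ftl1) chains that stores iron, and the transferrin receptor brings iron into the cell. Iron-regulatory proteins hold these genes in balance: when iron is scarce they bind hairpins called iron-responsive elements, which blocks translation of ferritin RNA and protects transferrin receptor RNA from decay.

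Fth1 was by far the most read of the 8 genes and Mb came next. Fth1 had 3170 reads in replicate 1 and 1392 in replicate 2, which is 2100 and 1186 counts per 1000000 reads of the library (CPM), with a mean of 1643 ± 646 CPM (SD, n = 2). It ranked 38 among all genes by mean level. Mb had 305 and 588 reads, 202 and 501 CPM, with a mean of 352 ± 212 CPM (SD, n = 2) and rank 255. These 2 genes moved in opposite directions: replicate 1 was the higher library for Fth1 and the lower one for Mb.

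The other 6 genes lay lower. Ftl1 had 192 and 105 reads (127 and 89.5 CPM), Hba-a1 157 and 76 (104 and 64.8 CPM), and Hbb-bs 99 and 40 (65.6 and 34.1 CPM). Tfrc had 55 and 52 reads (36.4 and 44.3 CPM), Hba-a2 39 and 25 (25.8 and 21.3 CPM), and Hbb-bt only 14 and 4 (9.28 and 3.41 CPM). A count of 0 would allow up to 3 reads, or 1.99 and 2.56 CPM in the respective libraries, so Hbb-bt in replicate 2 lay just above that limit.

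Levels of different genes were ordered per length, as CPM per kb of the most read annotated transcript. Fth1 led with 2261 and 1277 CPM per kb, followed by Mb with 183 and 454. Below them came Hba-a1 (149 and 92.7), Ftl1 (131 and 92.5) and Hbb-bs (104 and 54.3), whose neighbouring ranges over the 2 libraries overlapped and so did not differ beyond their spread. Hba-a2 (46.6 and 38.5) stood apart from Hbb-bs above and from Hbb-bt below. At the bottom Hbb-bt (13.2 and 4.85) and Tfrc (7.45 and 9.06) overlapped. Tfrc is sixth by CPM and last per length, because its transcript of 4890 bases is the longest of the 8.

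**Figure D1:**
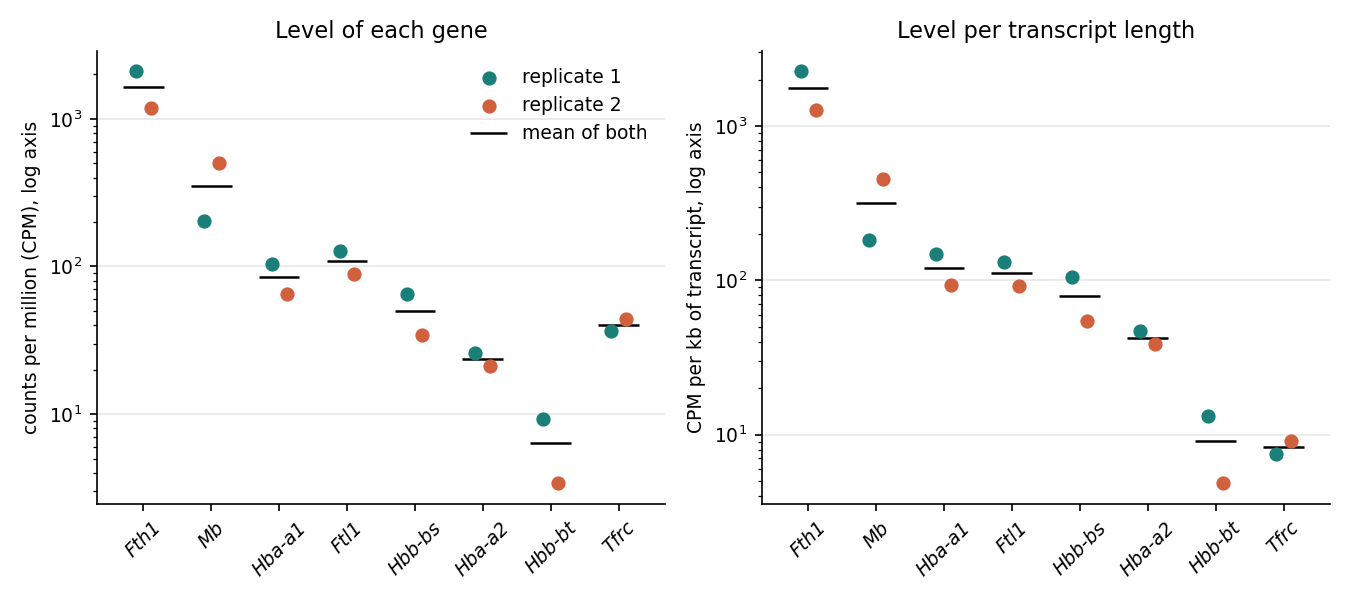
Level of each gene in CPM (left) and per kb of transcript (right), both on log axes; points are the 2 libraries and the bar is their mean. Fth1 stands highest in both panels, Mb is higher in replicate 2 (501 against 202 CPM), and the globin and ferritin points of replicate 2 lie below those of replicate 1.

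Mb was the only one of the 8 genes called different between the libraries, against 10.3% of all 9032 genes tested. The call needed an adjusted p below 0.05, from Fisher's exact test (two-sided) of the gene's reads against all others, and at least a 2-fold difference. Mb was 2.48-fold higher in replicate 2 (95% interval 2.16 to 2.86, log2 ratio 1.31, adjusted p = 3.53e-38 by Fisher's exact test), where 8.24% of all genes were called higher and 2.04% lower. The median log2 ratio over all genes tested was 0.19, so Mb lay well above the general shift. Scaling by TMM removes that shift, and Mb was still called, at a log2 ratio of 1.11.

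Markers of slow fibres moved with Mb. All 11 slow-fibre genes tested were called higher in replicate 2, their summed level rose from 419 to 5316 CPM, and their median log2 ratio was 3.22. Myh7, the slow myosin heavy chain, had 119 and 2729 reads. Of 9 fast-fibre genes 3 were called lower and none higher, and their median log2 ratio was -0.75. Over all genes 8.24% were called higher and 2.04% lower. Centring on transcript length removes the general difference between short and long transcripts. After it the medians were 3.31 for slow-fibre and -0.51 for fast-fibre genes. Those called lower were Pvalb, Mylpf and Tnni2, with centred log2 ratios of -1.15, -0.98 and -0.80. All 9 fast-fibre genes had an adjusted p below 0.05 at any fold by Fisher's exact test, against 21.4% of all genes tested. Their summed level was 242610 and 244205 CPM, so fast-fibre RNA, as the labelled muscle should carry, was abundant in both libraries. Most of that sum was Atp2a1 (151249 and 174781 CPM), which with Myh4 was higher in replicate 2 (log2 ratios 0.21 and 0.36), so the sum does not show the lower median. Both fibre lists were chosen with earlier results of these data known, so their counts are a description. The part of fibre makeup in the Mb difference was not tested. In bulk tissue, fewer cells of a type and less RNA per cell cannot be told apart.

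The 5 genes whose levels over the 2 libraries lay nearest to those of Mb were Plec, Kif1b, Fbxo40, Mef2c and Ankrd40, by distance of log2(CPM + 1). Plec, which encodes the cytolinker plectin, was closest at 193 and 490 CPM. Mef2c, a muscle transcription factor, stood at 217 and 437 CPM. With only 2 libraries this likeness is a description of level and direction.

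Mb is annotated on chromosome 15 from 77015487 to 77050670 on the minus strand (mm10, GENCODE M21), with 6 transcripts. Only 2 of them had reads. Mb-203, with 3 exons, had 156 and 297 reads, and Mb-201, with 4 exons, had 21 and 52. The 3 transcripts that begin 3338 to 27883 bases further upstream had 0 reads in both libraries, which allows a share of up to 1.69% and 0.860% of the reads on annotated transcripts. A further transcript that begins downstream of Mb-203 also had 0 reads.

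The 2 transcripts with reads encode the same 462 coding bases and differ in the leader ahead of them. Mb-203 begins at position 77022787 with a first exon of 299 bases (77022489 to 77022787) and has 204 leader bases. Mb-201 begins 60 bases further in, with a first exon of 56 bases (77022672 to 77022727), and splices out an 80-base intron (77022592 to 77022671) from the leader, which leaves 64 leader bases. Both place the first coding base at position 77022583. The sequences below, from GENCODE M21 transcripts, show the splice itself. In the first, capitals mark the exon joined after the splice. In the other pair, capitals mark the first and last bases of the intron, GT at its start and AG at its end, that Mb-203 keeps.
Mb-201 joined leader, chr15:77022672-77022686 and chr15:77022577-77022591, minus strand: ctagcatctgggaagAAGCCACCATGGGGC
Mb-203 across the donor, chr15:77022657-77022686, minus strand: ctagcatctgggaagGTATAAAAGCCCTTC
Mb-203 across the acceptor, chr15:77022577-77022606, minus strand: TTTTGTCCTCTTTAGaagccaccatggggc

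Mb-203 made up 88.1% of reads on annotated Mb transcripts in replicate 1 (95% Clopper-Pearson interval 82.4 to 92.5) and 85.1% in replicate 2 (80.9 to 88.7). The share did not pass the test between the libraries (adjusted p = 1 by Fisher's exact test), where 0.989% of 1314 genes did. The splice sites of Mb-203 are all contained in those of Mb-201, so a read that begins within or after the leader intron has no splice that would name it Mb-201. Read ends are not in the files, and the part of shortened reads in the Mb-203 share was not tested. The retained stretch holds the letters TATAAAA, 87 bases before the coding start and directly after the intron's first base. A TATA motif is known from many tissue-specific promoters, and no read start in the files bears on this one.

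The 150 bases upstream of the Mb-203 start, from the RefSeq promoter table for GRCm38.p6, are shown. All Mb reads on annotated transcripts were assigned to Mb-203 or Mb-201, whose annotated starts lie beside this window. Where the reads themselves began is not known. Capitals mark the CCAAT box, here as its reverse complement, and CCACCC, a motif bound by Sp1 and KLF family factors.
Mb promoter window, chr15:77022788-77022937, minus strand: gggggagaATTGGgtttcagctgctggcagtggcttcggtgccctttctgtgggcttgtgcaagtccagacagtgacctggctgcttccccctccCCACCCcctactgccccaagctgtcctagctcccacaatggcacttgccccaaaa
Searched on both strands were the TATA box as TATAA, the CCAAT box, the Sp1 and KLF box as CCACCC, the GATA factor site as GATAAG, and the E-box as CANNTG. This window holds CCACCC at 55 bases before the start and the CCAAT box at 142, and the E-box at 2 places not in capitals. It holds no match to the TATA box or the GATA factor site, and the matches do not overlap. Among 32851 RefSeq windows of the same length, 14.2% hold the TATA box, 24.5% the CCAAT box, 19.7% the Sp1 and KLF box, 3.75% the GATA factor site and 47.7% the E-box.

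Many Mb reads were assigned to models without an intron. Single-exon models of the genomic class, which do not follow an annotated intron chain, took 122 reads in replicate 1 and 219 in replicate 2. With 1 more read in replicate 2, on a model of 2 exons, the class made up 40.0% of Mb reads in replicate 1 (34.5 to 45.7) and 37.4% in replicate 2 (33.5 to 41.5). Over all genes it made up 2.39% and 2.28% of reads. The single-exon models span 77015487 to 77015905 in replicate 1 and 77015487 to 77015817 in replicate 2. Both lie wholly in the 3′ untranslated part of the last exon, and their upstream ends coincide with annotated transcript ends, 77015905 being that of Mb-201.

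The library difference was alike in both parts of the Mb count. Reads on annotated transcripts rose from 117 to 297 CPM, a ratio of 2.54 (2.11 to 3.06), and genomic reads from 80.8 to 188 CPM, a ratio of 2.32 (1.85 to 2.92). The intervals overlap. The single-exon models span no intron and so do not show whether the RNA was spliced. Whether their reads are fragments of spliced Mb RNA was not tested.

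**Figure D2:**
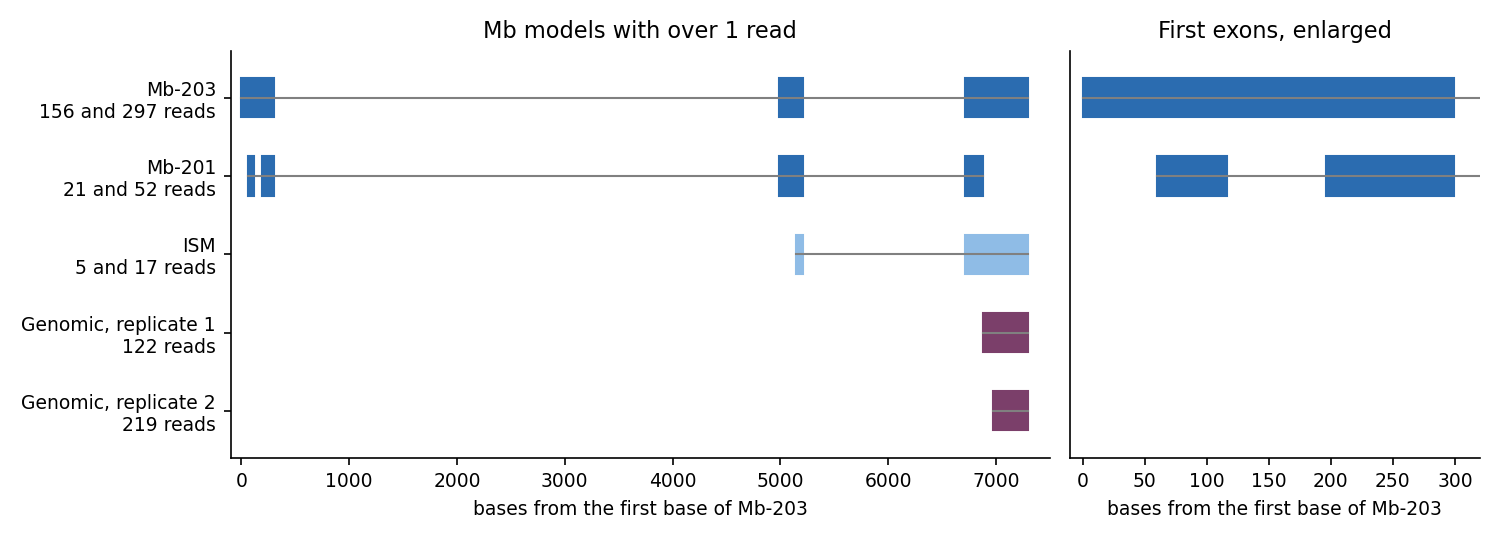
Exons (boxes) and introns (lines) of the Mb models with over 1 read, by distance in bases from the first base of Mb-203, with reads in replicates 1 and 2; the right panel enlarges the first exons. The leader intron is spliced only in Mb-201 (21 and 52 reads), and the genomic models (122 and 219 reads) cover only the last exon.

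The globin genes leaned the other way from Mb. Hba-a1 was 1.61-fold higher in replicate 1 (1.21 to 2.14, adjusted p = 0.00476 by Fisher's exact test) and Hbb-bs 1.92-fold higher (1.32 to 2.85, adjusted p = 0.00281), and neither reached a 2-fold difference. Hba-a2 (1.21-fold, 0.716 to 2.09, adjusted p = 0.753) and Hbb-bt (2.72-fold, 0.854 to 11.4, adjusted p = 0.251) did not pass the same exact test. Together the 4 genes had 309 and 145 reads, or 205 and 124 CPM, a ratio of 1.66 (1.36 to 2.03) in favour of replicate 1. Hbb-bs passed the 2-fold line under TMM scaling (log2 ratio -1.12). After centring on transcript length, which removes the general difference between short and long transcripts, the log2 ratio was -0.25 for Hba-a1, -0.45 for Hbb-bs and 0.38 for Hba-a2, so that of Hba-a2 changed sign.

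Alpha globin outweighed beta globin. The alpha genes took 63.4% of globin reads in replicate 1 (57.8 to 68.8) and 69.7% in replicate 2 (61.5 to 77.0). Within each pair 1 gene dominated in both libraries. Hba-a1 took 80.1% (73.8 to 85.5) and 75.2% (65.7 to 83.3) of alpha reads, and Hbb-bs took 87.6% (80.1 to 93.1) and 90.9% (78.3 to 97.5) of beta reads. The intervals of the 2 libraries overlap for every pair.

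These splits are uncertain because the copies are alike. The alpha copies are nearly identical over all aligned bases, and the beta copies in their coding parts only. The coding parts of Hba-a1-201 and Hba-a2-201 differ at 1 base (99.8% identity), and so do those of Hbb-bs-201 and Hbb-bt-201 (99.8%). Over the whole transcripts, of 699 and 554 bases, the alpha pair also differs at 1 aligned base but has 177 gap columns, bases of one transcript with no partner in the other. The beta pair has 92.7% identity with 79 gap columns. The RefSeq promoter windows of Hba-a1 and Hba-a2 are identical over 147 aligned bases, and those of Hbb-bs and Hbb-bt match at 73.6% of aligned bases. RefSeq and GENCODE do not always place the start alike: the Hba-a1 window lies inside the first exon of Hba-a1-201, and Hbb-bt-201 begins 73 bases upstream of its RefSeq start. The Hba-a2 window is shown with the CCAAT box, CCACCC and the TATA box in capitals, at 91, 64 and 30 bases before the RefSeq start.
Hba-a2 promoter window, GRCm38.p6 chr11:32296342-32296491, plus strand: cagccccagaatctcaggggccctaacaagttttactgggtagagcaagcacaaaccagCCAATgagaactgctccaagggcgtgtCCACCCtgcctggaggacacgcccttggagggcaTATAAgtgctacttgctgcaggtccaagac
In the beta pair the stretch around the CCAAT box is shown, with it and a CACCC motif in capitals. In Hbb-bt a reverse-complement CCAAT box directly before the forward one is in capitals too. The forward box lies 76 bases before the RefSeq start in Hbb-bs and 75 in Hbb-bt, and in Hbb-bt it begins 2 bases before the GENCODE start of Hbb-bt-201.
Hbb-bs CCAAT site, chr7:103827997-103828026, minus strand: tagagccaCACCCtggtaagggCCAATctg
Hbb-bt CCAAT site, chr7:103813991-103814020, minus strand: cagggtaaCACCCtggcATTGGCCAATctg
The alpha genes with these identical windows had 157 and 39 reads in replicate 1 and 76 and 25 in replicate 2. How reads were placed between copies is not given in the sources used here, and its part in the split was not tested.

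Spliced, annotated transcripts made up most globin reads. Hba-a1-201 held 93.6% and 100% of Hba-a1 reads (p = 0.0328, adjusted p = 0.387 by Fisher's exact test), Hba-a2-201 100% and 96.0% of Hba-a2 reads, and Hbb-bs-201 92.9% and 85.0% of Hbb-bs reads. Transcripts annotated as retaining an intron had at most 5 reads per gene and library, 5 for Hba-a1 in replicate 1. In Hbb-bs, 3 and 4 reads were of single-exon genomic models. None of the 7 genes of the set with enough reads passed the test of its dominant transcript share between the libraries, where 2.65% of 4535 genes did.

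Other markers of red cells were scarce. Of 10 genes of the list that the annotation names, 6 had 0 reads in both libraries, among them Slc4a1, the anion exchanger of the red cell membrane, and Alas2, the red-cell enzyme of haem synthesis, had 2 and 1. The summed level of the list was 170 and 142 CPM, nearly all of it from Bpgm (245 and 158 reads), which makes the 2,3-bisphosphoglycerate that lowers oxygen binding by haemoglobin. The part of blood content in the globin difference was not tested. Of the 10 other globin genes, 9 had 0 reads in both libraries, embryonic Hba-x and Hbb-y included. The exception was Cygb, cytoglobin, with 10 and 24 reads and a call as higher in replicate 2 (log2 ratio 1.49, adjusted p = 0.0171 by Fisher's exact test).

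Ferritin RNA was almost all heavy chain as counted. Fth1 took 94.3% of Fth1 and Ftl1 reads in replicate 1 (93.5 to 95.0) and 93.0% in replicate 2 (91.6 to 94.2). Fth1 was 1.77-fold higher in replicate 1 (1.66 to 1.89, adjusted p = 9.17e-73 by Fisher's exact test), short of a 2-fold difference but a log2 ratio of -1.02 under TMM scaling, which was called. Ftl1 was 1.42-fold higher in replicate 1 (1.11 to 1.82, adjusted p = 0.0207 by Fisher's exact test). In all, 5 of the 8 genes had an adjusted p below 0.05 at any fold, against 21.4% of all genes tested. Centred on length, the log2 ratios were -0.49 for Fth1 and -0.11 for Ftl1.

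The Ftl1 count depends on a near-identical copy. GENCODE annotates Ftl1-ps1-202, a single-exon transcript of 938 bases at chr13:74406409-74407346 (plus strand), under a pseudogene name but with a coding part (bases 196 to 744). It had 346 and 175 reads, more than Ftl1 itself in both libraries. Its letters match Ftl1-201 at 99.6% of aligned bases, with 4 mismatches over the transcript and 2 in the coding part. With its reads added, together with 1 read of Ftl2-ps, the mean Ftl1 level would be 298 rather than 108 CPM and the Fth1 share 84.3% rather than 93.6%. Ftl1-ps1 itself was 1.54-fold higher in replicate 1 (1.28 to 1.85), close to the 1.42-fold of Ftl1. Whether these reads came from spliced Ftl1 RNA was not tested.

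Both ferritin genes were read almost wholly as 1 transcript. Fth1-201 held 98.1% and 98.3% of Fth1 reads, and Ftl1-201 held 95.8% and 96.2% of Ftl1 reads. Rare Fth1 reads used a splice donor shifted by 4 bases: 2 and 1 reads at the first exon, and 6 and 4 at the second, at most 0.287% of the gene's reads. Reads on Ftl1 transcripts annotated as retaining an intron numbered 4 in each library.

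**Figure D3:**
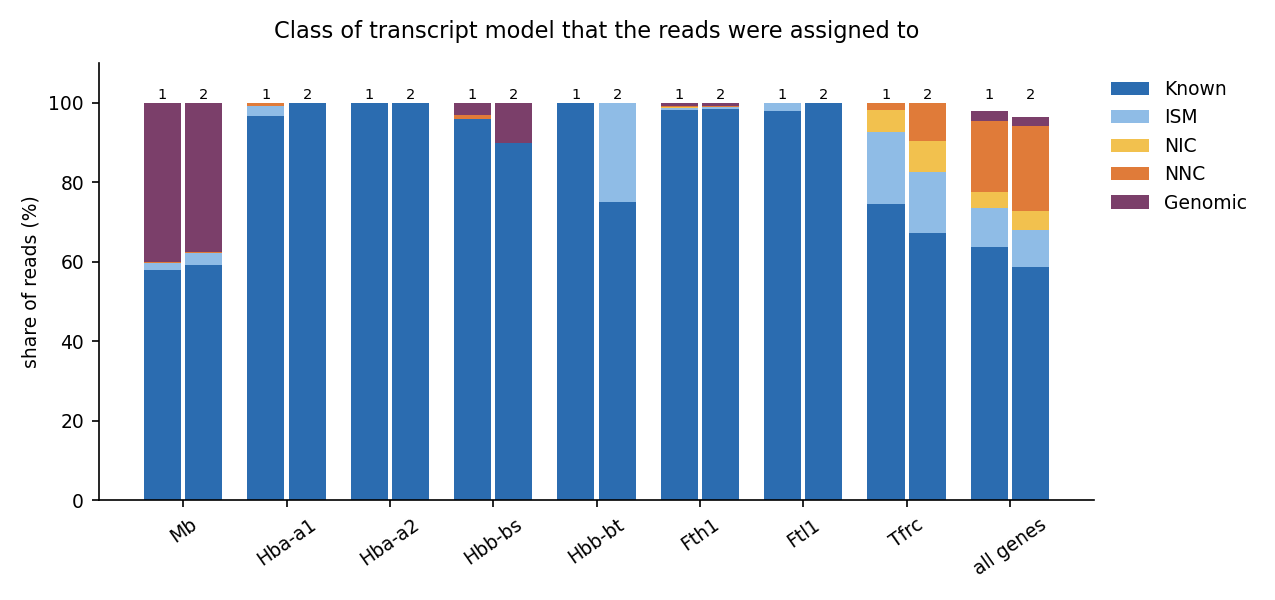
Share of reads (%) by class of transcript model for each gene and for all genes, with 1 bar per replicate. Known are annotated transcripts, ISM incomplete splice matches, NIC and NNC unannotated splicing with known or new splice sites. Mb stands out by its genomic share (40.0% and 37.4%) and Tfrc shows an ISM share of 18.2% and 15.4% (that of Hbb-bt in replicate 2 is 1 of 4 reads); bars of all genes stop below 100 where reads fell in other classes.

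A larger share of Tfrc reads than of ferritin reads lay on partial and variant models. Its 55 and 52 reads lay on 9 models in each library. Tfrc-201, with 19 exons, held 74.5% (61.0 to 85.3) and 67.3% (52.9 to 79.7) of them, and incomplete splice matches held 18.2% and 15.4%. Even so, 45 of 55 reads (81.8%) and 44 of 52 (84.6%) were on models of at least 18 exons. The first exon could be compared by its splice donor: the main one held 44 of 46 assigned reads in replicate 1 and 36 of 40 in replicate 2 (adjusted p = 1 by Fisher's exact test, passed by 0.952% of 945 genes). The level did not pass the test between the libraries (1.22-fold higher in replicate 2, 0.816 to 1.81, adjusted p = 0.575 by Fisher's exact test), and its log2 ratio was 0.28 unadjusted and -0.28 centred on length.

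The iron-responsive elements that couple these 3 genes could be read from the GENCODE M21 transcripts. An element was searched as a C, 5 bases, the loop CAGTGN, and 5 bases that pair with the first 5, G-T pairs allowed. The 30 bases around each are shown with the loop in capitals. The search found 1 element each in Fth1-201 and Ftl1-201, ahead of the coding part, and 4 in Tfrc-201, after it. Elements with another loop or a broken pair are missed by this pattern, so the counts are of matches to it.
Fth1-201 element, chr19:9982732-9982761, plus strand: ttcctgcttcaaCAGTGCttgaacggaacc
Ftl1-201 element, chr7:45459778-45459807, minus strand: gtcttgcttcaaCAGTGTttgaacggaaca
Tfrc-201 element 1, chr16:32631219-32631248, plus strand: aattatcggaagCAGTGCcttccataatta
Tfrc-201 element 2, chr16:32631598-32631627, plus strand: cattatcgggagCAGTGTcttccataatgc
Tfrc-201 element 3, chr16:32631663-32631692, plus strand: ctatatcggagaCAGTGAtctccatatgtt
Tfrc-201 element 4, chr16:32631710-32631739, plus strand: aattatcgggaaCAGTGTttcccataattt
The ferritin elements carry the same letters in the 5 searched bases on both sides of the loop. Outside these, some of their 30 letters differ. The search found no element in Mb-203, Mb-201 or the main globin transcripts, and 1 in Ftl1-ps1-202 with the same 30 letters as that of Ftl1-201. Over all 141767 transcripts searched, 0.628% hold at least 1.

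Nearly all reads of the 3 genes were assigned to models that contain the elements found. The Fth1 element lay inside the model for 3126 of 3170 reads in replicate 1 (98.6%) and 1387 of 1392 in replicate 2 (99.6%), and that of Ftl1 for 188 of 192 (97.9%) and 101 of 105 (96.2%). All 4 Tfrc elements found lay inside the model for 54 of 55 reads (98.2%) and 52 of 52. A model's end is not a read's end, so these counts say which RNAs the reads were assigned to and not how far each read reached.

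The wider iron and haem lists are set against the same background, 10.3% of all genes called and 21.4% with an adjusted p below 0.05 at any fold. Among genes of iron uptake, export and control, 0 of 15 tested were called and 4 passed at any fold, with a median log2 ratio of 0.27 beside 0.19 for all genes. Hfe2 (hemojuvelin, a co-receptor in hepcidin control that muscle expresses strongly) was the most read with 1095 and 673 reads, followed by Pcbp1, an iron chaperone, with 156 and 146, and Ncoa4, which delivers ferritin to autophagy, with 104 and 135. At an adjusted p below 0.05 without the fold minimum were, with their log2 ratios, Hfe2 (-0.34), Ncoa4 (0.73), Fbxl5 (an iron-sensing subunit of a ubiquitin ligase, 0.54) and Slc40a1 (ferroportin, the iron exporter, 88 and 128 reads, 0.89). Tfr2, Heph, Cybrd1 and Ftmt had 0 reads in both libraries.

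Of the mitochondrial iron genes none of 17 tested was called, 4 passed an adjusted p below 0.05 at any fold, and the median log2 ratio was -0.12. Glrx5, a glutaredoxin of iron-sulphur cluster assembly, had 209 and 96 reads (log2 ratio -0.75, adjusted p = 0.00018 by Fisher's exact test), and reached -1.02, a call, when centred on length. Ciapin1, a cytosolic cluster assembly factor, had 82 and 123 reads (0.94, adjusted p = 5.73e-05 by the same exact test). Isca1, which helps assemble iron-sulphur clusters, had 450 and 297 reads, and Bola3, another cluster assembly factor, had 279 and 199. In haem synthesis none of 11 was called (median 0.22), and 2 passed an adjusted p below 0.05 at any fold. Urod, uroporphyrinogen decarboxylase, was the lower of these in replicate 2, with 88 and 36 reads (log2 ratio -0.90, adjusted p = 0.0078 by Fisher's exact test), and it was called under TMM scaling (-1.10). The other was Alas1 (0.34, adjusted p = 0.015 by the same exact test). Alas1, which catalyses the first and limiting step outside red cells, had 335 and 330 reads, and Fech, which inserts the iron, had 301 and 260.

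In haem breakdown and transport 2 of 10 genes were called, both higher in replicate 2 and both from few reads, where 8.24% of all genes were called higher and 2.04% lower. Flvcr1, a haem exporter, had 3 and 15 reads (log2 ratio 2.21, adjusted p = 0.00868 by Fisher's exact test), and Lrp1, a receptor that takes up the haem-haemopexin complex among many ligands, had 12 and 26 (1.37, adjusted p = 0.0176 by Fisher's exact test). The list's median log2 ratio was -0.03. The most read gene, Slc48a1, a haem transporter, had 183 and 118 reads, and Hmox1, the inducible haem oxygenase, had 1 and 0.

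Markers of other cells were read against the same shares, 8.24% of all genes called higher and 2.04% lower. Among macrophage genes, cells that recycle red-cell iron, 0 of 6 tested were called, with a median log2 ratio of -0.57 and a summed level of 82.2 and 63.1 CPM. Among endothelial genes 3 of 7 were called higher in replicate 2 (Cldn5, Kdr and Tek), with a median of 1.10 and a summed level of 54.3 and 127 CPM. Centred on transcript length, the medians were -0.32 for macrophage genes and 0.53 for endothelial genes. The summed endothelial level was higher in replicate 2 and the summed globin level lower, and neither sum was corrected for transcript length.

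**Figure D4:**
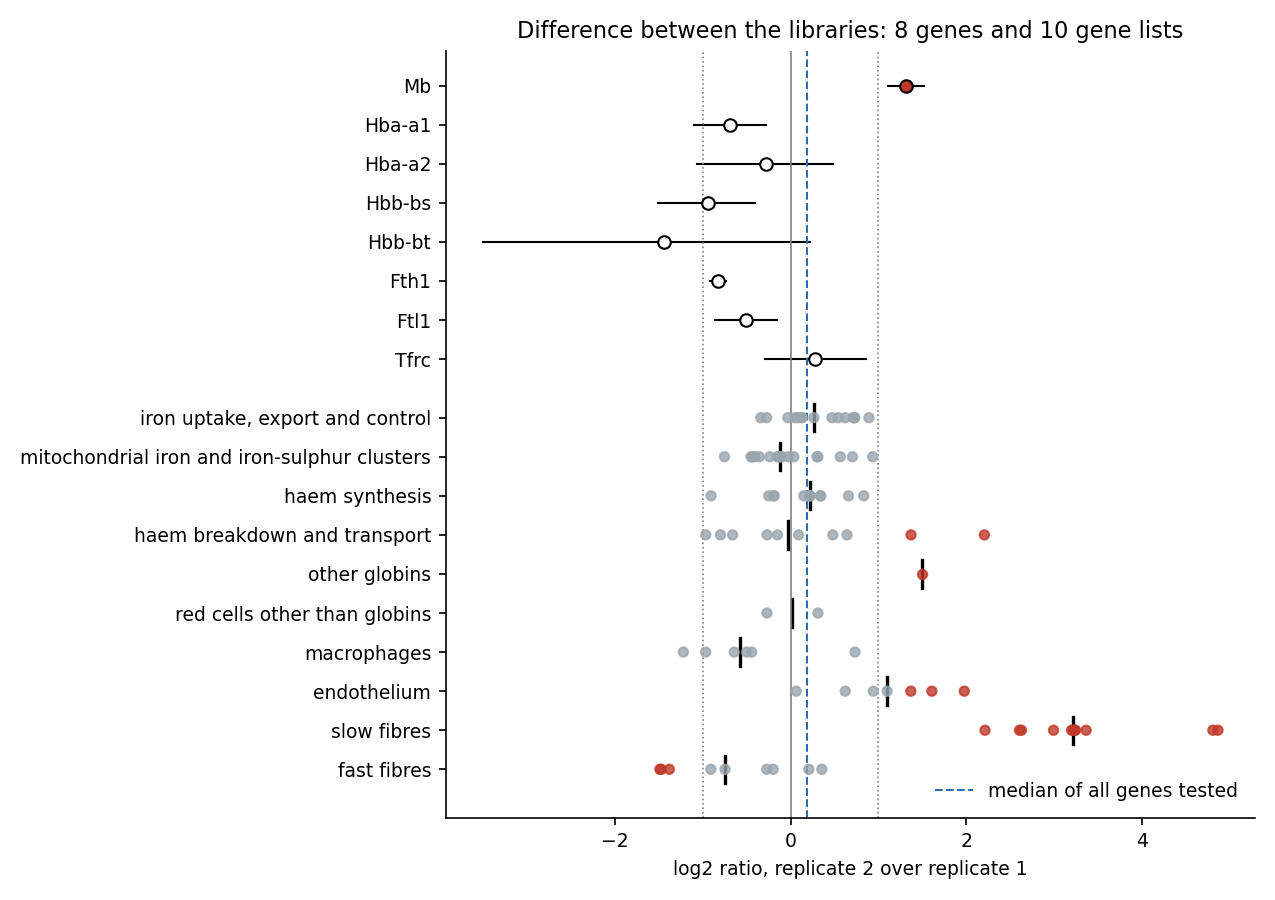
Log2 ratio of replicate 2 over replicate 1. Circles are the 8 genes (log2 of the CPM ratio with its 95% interval) and dots the tested genes of 10 lists (log2 of CPM + 1), red where called; black ticks are list medians and dotted lines mark 2-fold. Mb is the only called gene of the 8, and the 11 slow-fibre genes lie furthest to the right.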

How the data were processed

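The deposited values are raw counts of long reads per transcript model, which the authors made, per their README files, from filtered alignments to mm10 with GENCODE M21; the source field of the deposited annotations names TALON. The sources used here do not give aligner, platform or versions. Exon coordinates of annotated transcripts were identical to GENCODE M21 for all 141862 in both libraries.

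The reads of each annotated gene, of every class, were added up and divided by the table's total. Genes of 10 or more reads in sum were tested between the libraries (Fisher's exact test, two-sided) with Benjamini-Hochberg adjustment over all 9032, called at an adjusted p below 0.05 and 2-fold. Log2 ratios use CPM + 1, which understates the change of low genes. Shares were tested with at least 20 reads per library. First exons were compared by splice donor, leaving out donors that another transcript of the gene uses in a later exon. In Mb this left 1 donor, because that of Mb-203 is also a later donor of Mb-201. Its first exons were therefore compared by annotated start within 50 bases. Intervals (95%, Clopper-Pearson) and the 3-read floor cover counting error only, since copies of 1 molecule cannot be recognised. P-values measure counting error between these libraries and not the spread between animals. The test was checked on simulated reads that varied by counting error only, so that check does not cover other variation between libraries. The 8 genes and all lists were chosen with earlier results of these data known. Named genes are the 8, called list genes, the 3 most read of a list, the 5 nearest to Mb and genes with ferritin pseudogene names. Others were chosen after their values were seen. Promoter windows matched all 8 genes. Alternatives used TMM from edgeR 4.0.16 and size factors from DESeq2 1.42.0 (R 4.3.3), with Python 3.11.15 and scipy 1.17.1. Single-gene results of 2 list genes are not reported here.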

Additional observations from a re-analysis of the deposited data

Results flagged for a closer look

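Antisense models over Tfrc held 5 reads in replicate 2, above the 3 reads that a count of 0 allows, and 1 read in replicate 1. They are single-exon models on the minus strand, at chr16:32613542-32613662 in replicate 2, and stand outside the counts of the report.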

How the results depend on the processing

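No paired analysis was possible because there is 1 group. The Mb log2 ratio kept its direction in every alternative run, between 1.10 and 1.64, and lost its call only at a 4-fold minimum. Calls over all genes were 928 and became 201 at a 4-fold minimum and 478 centred on length. Higher and lower calls were 744 and 184 (80.2% higher). They became 446 and 376 (54.3%) with TMM, 442 and 384 (53.5%) with DESeq2 size factors, 162 and 39 at a 4-fold minimum, 348 higher when centred on length, and 101 lower with known transcripts only. Calls among the 8 genes were 3 with TMM and with DESeq2 size factors (Mb, Fth1, Hbb-bs), 2 without ISM and genomic models and 0 at a 4-fold minimum. Iron and haem list calls were 5 with known transcripts only and 1 at a 4-fold minimum, against 3, and Urod was a further call with TMM and DESeq2 size factors; Lrp1 gave no value with known transcripts only or without ISM and genomic models. The Fth1 share was 84.3% with the reads of Ftl1-ps1 and Ftl2-ps added. Genes with a changed dominant transcript numbered 24 with known transcripts only, against 120. Leaving spike-in reads out of the totals, chosen after seeing the data, gave 888 calls and an Mb log2 ratio of 1.28. With known transcripts only Tfrc had reads on 1 transcript, so its shares had no value. With 14 and 4 reads Hbb-bt has the widest interval of the 8. Beyond the stricter fold, the causes were not tested.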
